A study of Mus musculus with 6 samples.

Results

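Extracellular matrix and integrin genes were compared between mouse embryonic stem (ES) cells that lack the repressor REST and control ES cells, on Illumina MouseRef-8 v2 bead arrays. The genes were taken by name: the numbered collagen and laminin chains, every gene whose name starts with Itga or Itgb, and a short set of matrix proteins (nidogens, perlecan, agrin, tenascin C, SPARC, thrombospondins, osteopontin, fibrillins, lysyl oxidase and lecticans). The rule found 89 genes, read by 138 probes, of 17752 genes and 25697 probes on the array. Of the 89 genes 37 were tested, because at least 1 of their probes reached a detection p under 0.05 on 3 or more of the 6 arrays, and 28 had a probe detected on all 6. Fibronectin (Fn1), which the rule also names, is not analysed here.

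Total RNA came from the E14Tg2a line, an Hprt-deficient mouse ES cell line that grows without feeder cells. The 3 control samples are labelled FloRes, with the genotype control, and the 3 REST KO samples FloResCre. The name of the authors' own results table sets REST KO against Rest flox, and the series text speaks of Rest-null cells. The sources used here do not give which exons were removed, whether the cells are 1 clone, or which surface the profiled cells grew on. The labels also do not say whether replicates were separate cultures, so every p-value rests on a spread between samples that may be technical.

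The matrix around cells is built from fibrous collagens, from the basement membrane, a sheet of laminin and collagen IV networks joined by nidogen and perlecan, and from matricellular glycoproteins, which modulate adhesion without bearing load. Cells hold on to it through integrins, receptors made of an alpha and a beta chain that bind laminin, collagen or fibronectin outside and talin and kindlin at the inner face of the membrane. Mouse ES cells make laminin and collagen IV, and the inner cell mass and the primitive endoderm lay down the earliest basement membranes of the embryo. REST (RE1-silencing transcription factor) binds RE1 elements and represses many neuronal genes outside neurons.

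The arrays were similar in quality, with 42.5% to 44.9% of probes detected per array and a mean of 40 to 40.2 beads per probe. The only Rest probe was detected on none of the 6 arrays (log2 4.94, 4.97 and 5.11 in control replicates 1 to 3 and 4.87, 4.92 and 5.08 in REST KO replicates 1 to 3), so the arrays do not check the genotype labels. Control arrays occupied the first 3 positions of the chip and REST KO arrays the last 3, so position and genotype cannot be told apart. Control replicate 2 stood apart from the other controls: squared differences between arrays, divided by the bead error, were 6.09 and 5.57 against control replicates 1 and 3 but 3.69 against REST KO replicate 2, while control replicates 1 and 3 differed by 2.42. Over all 8635 tested genes it lay nearer to the REST KO mean than to the mean of the other controls in 58%, and over the 37 tested matrix and integrin genes in 18, or 48.6%. Of the REST KO arrays replicate 3 lay nearest to control replicates 1 and 3, at 5.63 and 4.03. Against REST KO replicates 1 and 2 it stood at 2.79 and 2.81. All 9 ES cell marker genes were detected on every array, with a summed level of log2 16.327 to 16.747 in control and 16.241 to 16.468 in REST KO arrays. That sum is mostly Dppa5a, at 15.76 to 15.82 on every array, and all 9 markers were below 0 in REST KO cells, with a median difference of -0.61 (limma, 0 called, 3 at an unadjusted p under 0.05). Of all tested genes 10% were lower at that p. Of 10 fibroblast markers 8 were detected on no array, among them Col1a1, Col1a2 and Col3a1 of the fibrillar collagens, and their summed level was 8.809 to 8.926 in control and 8.944 to 9.119 in REST KO arrays. Of 5 endothelial and 5 blood markers 4 each were detected on no array, with summed levels of 8.943 to 9.112 and 7.802 to 7.965 in control and 8.815 to 8.915 and 7.566 to 7.703 in REST KO arrays. The fibroblast, endothelial and blood sums include undetected probes at background. The endothelial sum is mostly Tek, at 8.30 to 8.70 and detected on every array. The part of the marker genes in the results was not tested.

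Across the tested genes, matricellular glycoproteins and collagens lay mostly above control in REST KO cells, laminins and their linkers mostly below, and integrin chains on both sides. The genes whose difference passed the test were Tnc (tenascin C), read by 2 probes, and Ncan (neurocan). The 3 probes made up 6.38% of the 47 tested probes of the group, all higher in REST KO cells, while 1.27% of all 11388 tested probes were called in either direction and 1.05% were called higher. Of these 3, the dimmer Tnc probe was detected on no control array and the other 2 on 1 control array each. All 3 entered the test only because the REST KO arrays detected them, so their share depends in part on the filter. Of the 36 probes of the group detected on all 6 arrays 0 were called. In a fit of such probes alone 0.696% of all 9914 were called, so 0 of 36 says little about the group. No probe of the group was called lower at an adjusted p under 0.05 by limma, although 10 lower probes had an unadjusted p under 0.05. Without adjustment 23 of the 47 probes (48.9%) passed 0.05, 13 higher and 10 lower, against 19.9% of all tested probes. The 3 REST KO arrays all lay above the 3 control arrays in 13 of the 47 probes (27.7%, against 12.1% of all tested probes) and all below in 6 (12.8%, against 13%). The 13 include the 3 called probes and those of Thbs2 and Col12a1, which entered the test in the same way. With 1 probe per gene, the brightest, 21 genes were above 0 and 16 below, with a median difference of 0.09 on the log2 scale, beside -0.01 over all tested genes. In bulk RNA, fewer cells that express a gene and less RNA per cell cannot be told apart.

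**Figure D1:**
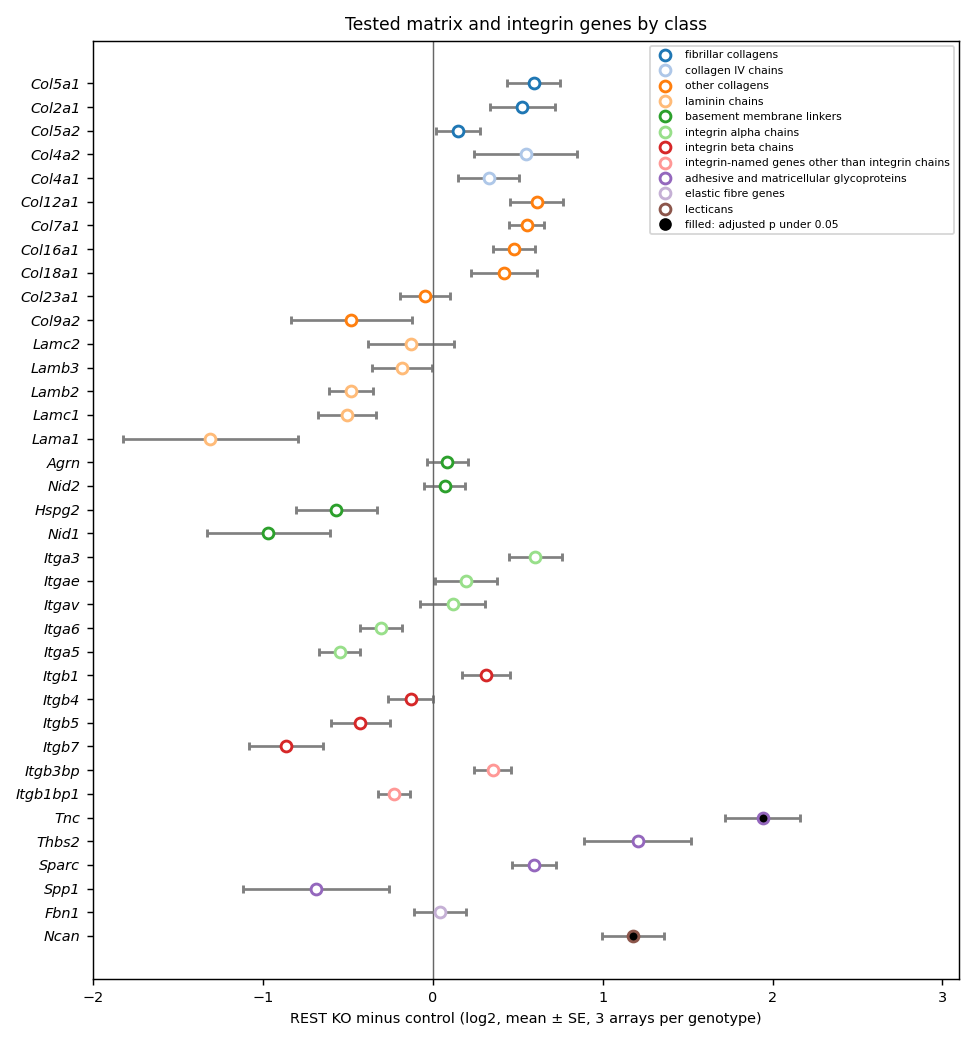
Difference between REST KO and control (log2, horizontal axis) for each of the 37 tested matrix and integrin genes, by class, from the brightest probe. Bars are the limma standard error of the difference (3 arrays per genotype), and points are filled where the adjusted p was under 0.05. Col12a1, not detected in control, is drawn at its measured difference. The filled points are Tnc at 1.94 and Ncan at 1.18, and the 5 laminin chains all lie at or left of -0.13.

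The largest difference of the group was that of a matricellular glycoprotein. Tenascin C is a large hexameric glycoprotein of embryonic and remodelling tissue that weakens adhesion to fibronectin. The brightest Tnc probe had log2 levels of 5.25, 5.52 and 5.98 in control replicates 1 to 3 and 7.48, 7.85 and 7.25 in REST KO replicates 1 to 3. The groups were well separated, and of the control arrays 1 detected the probe, so the difference is in part against background. It rose by 1.94 ± 0.22 on the log2 scale, 3.84-fold (SE, n = 3 per genotype, adjusted p = 0.0239). A dimmer Tnc probe had 5.23, 5.42 and 5.49 in control and 6.70, 7.15 and 6.58 in REST KO arrays. No control array and every REST KO array detected it, and its level in REST KO cells was at least 2.03-fold higher (adjusted p = 0.0239). The other 4 Tnc probes were detected on no array. The call for the brightest probe was lost without control replicate 1 (1.77, adjusted p = 0.0778) and without REST KO replicate 1 (1.97, 0.156), 2 (1.78, 0.162) or 3 (2.07, 0.0568), and was kept without control replicate 2 (1.92, 0.0122).

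Thrombospondin 2, encoded by Thbs2, is a secreted protein that binds matrix proteases and restrains the formation of new vessels. Thbs2 had levels of 5.49, 6.61 and 5.66 in control replicates 1 to 3 and 7.36, 7.32 and 6.70 in the REST KO arrays. Control replicate 2 nearly reached REST KO replicate 3 and, alone among the controls, detected the probe, and the groups did not overlap. The difference of 1.21 ± 0.31 did not pass the test (adjusted p = 0.102). Sparc encodes a collagen-binding glycoprotein abundant in basement membranes. Its brightest probe had 9.81, 10.12 and 10.18 in control and 10.64, 10.72 and 10.53 in REST KO arrays, every REST KO array above every control. The difference was 0.59 ± 0.13 (adjusted p = 0.0724), and that of its other probe 0.51 ± 0.15 (adjusted p = 0.123), also without overlap.

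Osteopontin, an integrin ligand encoded by Spp1, was high in 2 of the controls. Spp1 had 11.90, 10.32 and 11.69 in control replicates 1 to 3 and 10.37, 10.30 and 11.17 in REST KO replicates 1 to 3. Control replicate 2 lay among the REST KO arrays, and the controls spanned over 1.5 on the log2 scale. Its difference of -0.69 ± 0.43 did not pass (adjusted p = 0.413). Thbs1, the remaining member of the class, was not tested.

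**Figure D2:**
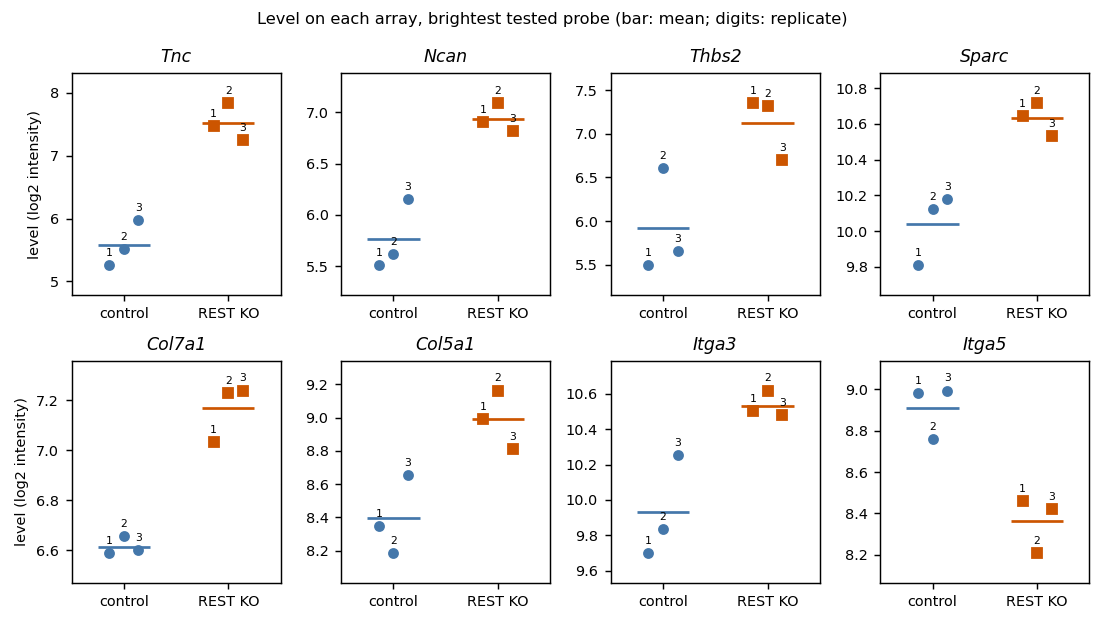
Log2 level of the brightest tested probe on each array for 8 genes, with a bar at the mean of each genotype and the replicate number beside each point. In all 8 panels the control and REST KO arrays are separated, with Itga5 lower and the other 7 higher in REST KO cells, and control replicate 2 is the high control of Thbs2. The genes drawn are all from those without overlap, so the separation follows from the choice. Of the 37 tested genes 11 were higher and 6 lower without overlap, Itgb7 among the lower ones not drawn.

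Neurocan, encoded by Ncan on chromosome 8, is a chondroitin sulphate proteoglycan of the lectican family that binds hyaluronan and tenascins in the matrix of the nervous system. Its probe had levels of 5.51, 5.62 and 6.15 in control replicates 1 to 3 and 6.91, 7.09 and 6.81 in REST KO replicates 1 to 3. The REST KO arrays lay close together above all controls, and 1 control array detected the probe. It rose by 1.18 ± 0.18 on the log2 scale, 2.26-fold (adjusted p = 0.0384). The call was lost with no filter on dim probes (adjusted p = 0.0619), without control replicate 1 (1.04, adjusted p = 0.128) and without REST KO replicate 1 (1.20, 0.196), 2 (1.10, 0.187) or 3 (1.23, 0.086). The other lecticans, versican (Vcan) and brevican (Bcan), were not tested.

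The promoters of the called genes are shown because the comparison is one of a DNA-binding repressor. Each sequence is the 250 bases before an annotated start, from RefSeq, build GRCm38.p6, read 5′ to 3′ along the minus strand on which both genes lie. Capitals mark the GC box (GGGCGG) and the TATA box (TATAAA) on either strand, so that TTTATA marks a TATA box of the opposite strand. Ncan spans chr8:70120845-70121094, and the Tnc window, the upstream one of its 2 annotated starts, spans chr4:64047016-64047265.

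Ncan: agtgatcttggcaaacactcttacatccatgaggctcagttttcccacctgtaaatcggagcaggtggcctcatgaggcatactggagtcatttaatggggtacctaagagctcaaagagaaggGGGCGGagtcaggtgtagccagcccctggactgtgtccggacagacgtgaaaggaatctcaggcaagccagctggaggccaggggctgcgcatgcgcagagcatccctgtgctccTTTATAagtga

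Tnc: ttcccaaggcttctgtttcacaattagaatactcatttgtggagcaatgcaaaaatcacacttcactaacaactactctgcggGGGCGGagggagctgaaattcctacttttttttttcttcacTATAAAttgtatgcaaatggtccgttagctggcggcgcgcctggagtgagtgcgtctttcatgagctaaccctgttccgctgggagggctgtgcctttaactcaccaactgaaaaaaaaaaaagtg

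The GC box began 126 bases before the start in Ncan and 167 bases before it in Tnc. The TATA box letters began 126 bases before the Tnc start, and lay 11 bases before the Ncan start on the opposite strand. The left (CAGCACC) and right (GGACAGC) parts of the RE1 element, searched on both strands with no overlap with the other motifs, were in neither sequence, which says only that these letters are not in this window. A window was found for 65 of the 89 genes. Of the 27 tested genes with a window 17 held a GC box (63%, against 35.4% of all 27025 genes with windows of the same length), 4 the TATA box (14.8% against 14.3%), 2 the left RE1 part (7.41% against 6.56%) and 1 the right part (3.7% against 6.14%). The 27 genes passed the detection filter, while the 27025 were taken whether detected or not, so these shares compare unlike sets. The shares over all tested genes were not computed. A match is a description of the letters only.

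Collagens lay above control as a class without any single call. Of 37 collagen genes on the array 11 were tested, 9 of them above 0, with a median difference of 0.48 on the log2 scale beside -0.01 over all tested genes. With Col12a1, which no control array detected, at its bound the median was 0.42. In 5 genes (45.5%, against 12.9% of all tested genes) every REST KO array lay above every control, and these 5 had an unadjusted p under 0.05 (10.4% of all tested genes were higher at that p). Col12a1 is 1 of the 5 and entered the test only through the REST KO arrays. Col2a1 is another, and its lowest REST KO array (6.40912) barely exceeded its highest control (6.40885). No collagen was lower without overlap.

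Among fibrillar collagens, which form the tensile fibres of the matrix, 3 of 11 were tested. Col5a1, a chain of the collagen V that starts fibril assembly, had 8.35, 8.18 and 8.65 in control and 8.99, 9.16 and 8.81 in REST KO arrays, with a difference of 0.59 ± 0.15 (adjusted p = 0.102). Col2a1, the cartilage collagen, had 5.82, 6.41 and 6.06 against 6.91, 6.55 and 6.41 by its brightest probe, with a difference of 0.53 ± 0.19 (adjusted p = 0.189). Its other probe, at 0.07 ± 0.23 (adjusted p = 0.893), overlapped between the genotypes. Col5a2 differed by 0.15 ± 0.13 (adjusted p = 0.556).

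Col4a1 and Col4a2 encode the chains of the common collagen IV network of basement membranes, and lie side by side on chromosome 8. Col4a1 had 8.29, 8.97 and 8.47 in control replicates 1 to 3 and 8.94, 8.97 and 8.81 in REST KO arrays. Col4a2 had 7.20, 8.35 and 7.73 in control and 7.92, 8.60 and 8.41 in REST KO arrays. In both genes control replicate 2 was the highest control, level with the highest REST KO array in Col4a1 and inside the REST KO range in Col4a2. The differences of 0.33 ± 0.18 and 0.55 ± 0.30 did not pass (adjusted p = 0.352 and 0.359). The 4 other collagen IV chains were not tested.

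Of the other collagens, Col7a1, the anchoring fibril collagen, came nearest to the threshold. It had 6.59, 6.66 and 6.60 in control and 7.03, 7.23 and 7.24 in REST KO arrays, a clear gap with closely spaced controls, and a difference of 0.55 ± 0.10 (adjusted p = 0.0548). Col16a1, a collagen of the surface of fibrils, differed by 0.48 ± 0.12 (adjusted p = 0.102), again without overlap. Col12a1, another of this kind, was detected on no control array and all 3 REST KO arrays, and was at least 1.16-fold higher there (adjusted p = 0.0991). Col18a1, whose C-terminal fragment is endostatin, had 12.75, 13.51 and 12.94 in control and 13.49, 13.54 and 13.42 in REST KO arrays, with control replicate 2 among the latter. Its 3 probes differed by 0.42, 0.38 and 0.37, and none passed (adjusted p = 0.285 to 0.572). Col9a2, a collagen that coats cartilage fibrils, ran the other way, with 8.43, 7.03 and 8.35 in control and 7.34, 7.36 and 7.66 in REST KO arrays. Control replicate 2 was its lowest array, and the difference of -0.48 ± 0.36 did not pass (adjusted p = 0.494).

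Laminin chains lay below control throughout the tested set. Of 9 laminin genes on the array 5 were tested, all 5 below 0, with a median difference of -0.48, and 3 had an unadjusted p under 0.05 (60%, against 10% of all tested genes lower at that p). Lama1, the alpha chain of the laminin of early embryos, had 10.55, 8.64 and 10.19 in control replicates 1 to 3 and 7.99, 8.28 and 9.18 in REST KO replicates 1 to 3. Control replicate 2 lay well below the other controls and inside the REST KO range, and REST KO replicate 3 was the highest of its genotype. The difference was -1.31 ± 0.52 (adjusted p = 0.221). Lamc1, the gamma chain of most laminins, had 11.36, 11.05 and 11.36 in control and 10.48, 10.71 and 11.06 in REST KO arrays, and control replicate 2 lay just under REST KO replicate 3. Its difference was -0.50 ± 0.17 (adjusted p = 0.17). Lamb2, a beta chain of neuromuscular and kidney basement membranes, was the laminin whose arrays did not overlap, with 8.14, 7.87 and 7.86 in control and 7.36, 7.43 and 7.64 in REST KO arrays. It differed by -0.48 ± 0.13 (adjusted p = 0.106). Lamb1, the beta chain that pairs with Lama1 and Lamc1 products in embryonic laminin, was detected on no array and was not tested.

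The proteins that tie laminin to collagen IV were split. Nid1 (nidogen 1) had 8.52, 7.22 and 8.58 in control and 6.99, 6.96 and 7.46 in REST KO arrays, and Hspg2 (perlecan, a heparan sulphate proteoglycan) had 11.88, 11.03 and 11.62 against 10.65, 10.97 and 11.21. In both genes control replicate 2 was the lowest control and lay within the REST KO range. Neither difference passed, at -0.97 ± 0.36 for Nid1 (adjusted p = 0.199) and -0.57 ± 0.24 for Hspg2 (0.244). Nid2 and Agrn (agrin) differed by 0.07 ± 0.12 (adjusted p = 0.789) and 0.09 ± 0.12 (0.723). Missing the threshold is no evidence of equal levels.

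Integrin chains had no called gene and no common direction. Of 23 chains on the array 9 were tested, 4 above 0 and 5 below, with a median difference of -0.13. Arrays did not overlap in 5 chains, of which REST KO was above control in 1 (11.1%, against 12.9% of all tested genes) and below in 4 (44.4%, against 13.2%), and an unadjusted p under 0.05 gave the same counts. Itga3, the alpha chain of a laminin receptor, had 9.70, 9.84 and 10.26 in control and 10.50, 10.62 and 10.48 in REST KO arrays. All REST KO arrays lay above the controls, by 0.60 ± 0.16 (adjusted p = 0.102). Itga5, the alpha chain of the main fibronectin receptor, had 8.98, 8.76 and 8.99 in control and 8.46, 8.21 and 8.42 in REST KO arrays. It lay lower in every REST KO array, by -0.55 ± 0.12 on the log2 scale (adjusted p = 0.0726), and its dimmer probe differed by -0.44 ± 0.20 with overlap (adjusted p = 0.276). Itga6, another laminin receptor chain, had 8.31, 8.59 and 8.44 against 8.02, 8.12 and 8.30, with no overlap and a difference of -0.30 ± 0.12 (adjusted p = 0.232).

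Among beta chains, Itgb1, the partner of most matrix-binding alpha chains, differed by 0.31 ± 0.14 (adjusted p = 0.28) by its brightest probe and by 0.06 ± 0.13 (0.847) by the other. Itgb7, known from lymphocyte homing, had 7.27, 7.15 and 6.72 in control and 5.83, 6.14 and 6.57 in REST KO arrays. The REST KO arrays were all lower and 2 of them detected the probe, and the difference was -0.86 ± 0.22 (adjusted p = 0.0983). Itgb5, which pairs with Itgav as a vitronectin receptor, had 8.41, 8.17 and 8.30 against 7.49, 8.02 and 8.09, also without overlap, and differed by -0.43 ± 0.17 (adjusted p = 0.235). Itgb4, the hemidesmosome chain, overlapped between genotypes with both probes, at -0.13 ± 0.13 (adjusted p = 0.62) and -0.22 ± 0.11 (0.315). Control replicate 2 lay nearer to REST KO than to the other controls in 1 of the 9 chains, against 7 of the 9 tested laminins and linkers.

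The rule also took 5 integrin-named genes that encode no integrin chain, of which 2 were tested. Itgb3bp, whose product is a centromere protein, had 9.62, 9.70 and 9.86 in control and 10.19, 10.04 and 10.00 in REST KO arrays, higher in every one, by 0.35 ± 0.11 (adjusted p = 0.147). Itgb1bp1, whose product binds the tail of the integrin encoded by Itgb1, was lower in every REST KO array, by -0.23 ± 0.09 (adjusted p = 0.237). Of the elastic fibre genes only Fbn1 (fibrillin 1) was tested, with 0.04 ± 0.15 (adjusted p = 0.906) and overlap.

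The other 52 genes were not tested, 45 of them detected on no array and 7 on 1 or 2 arrays. These 7 were Col4a5, Col5a3, Col17a1, Itga9, Itga11, Lama2 and Lox. By class the untested genes were 26 of the 37 collagens, 4 of the 9 laminins, 14 of the 23 integrin chains, among them the blood cell chains Itgam, Itgax and Itgb2, and smaller numbers elsewhere. Lox, the lysyl oxidase that crosslinks collagen and elastin, and Itga11, a collagen receptor chain, were detected on no control array and on 2 REST KO arrays each. Itga9, an alpha chain that binds tenascin C and osteopontin, was detected on 2 control arrays and no REST KO array. The 3 were picked out after their values were seen. Lox had 5.11, 5.33 and 5.15 in control and 6.54, 6.26 and 5.71 in REST KO arrays, and the brightest Itga11 probe 5.31, 5.28 and 5.46 against 6.02, 6.35 and 5.63. By these probes all REST KO arrays lay above all controls in both genes, at levels near the detection limit. The other Itga11 probes were detected on no array. Itga9 had 5.91, 5.38 and 5.93 in control and 5.30, 5.13 and 5.29 in REST KO arrays, all of the latter below all controls.

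**Figure D3:**
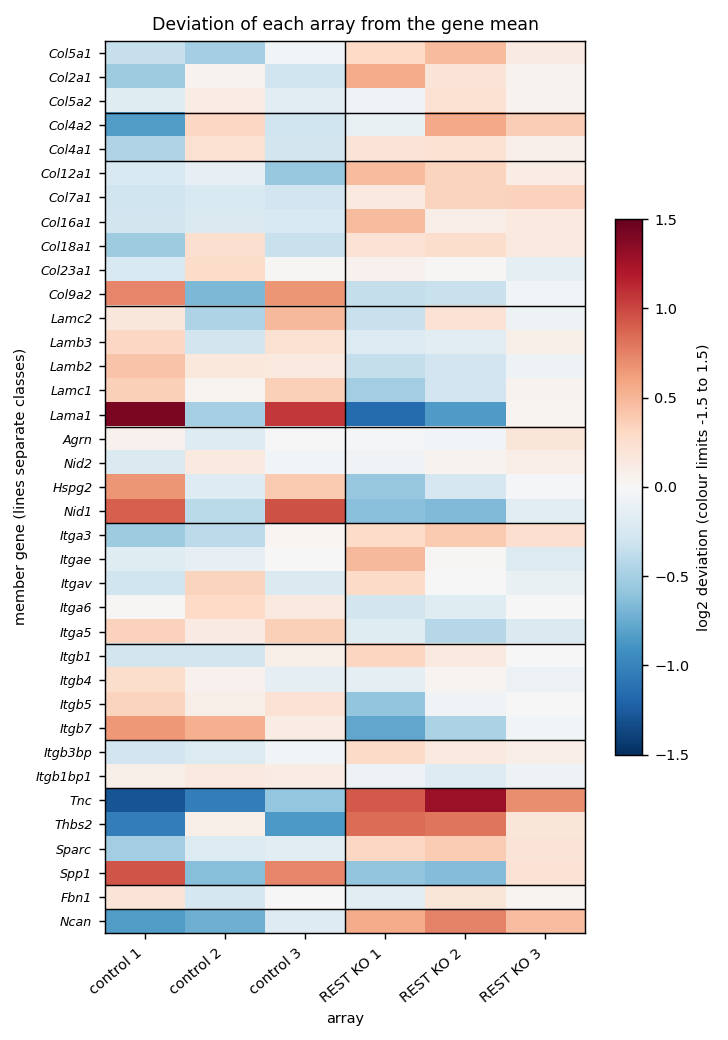
Deviation of each array (columns, 3 control and 3 REST KO) from the mean of the gene (rows, 37 tested genes grouped by class), in log2 units on a colour scale from -1.5 to 1.5. In Lama1, Nid1, Spp1 and Col9a2 control replicate 2 is below the gene mean, like REST KO replicates 1 and 2, while control replicates 1 and 3 are above it. REST KO replicate 3 is above the mean in Spp1 and near it in Lama1 and Col9a2.

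Because control replicate 2 lay near REST KO in several of these genes, the comparison was repeated without it, which leaves 2 controls. Of the 47 probes 12 were then called higher and 7 lower, or 40.4%, while 7.16% of all tested probes were called higher and 7.31% lower in the same fit. By gene 9 were higher: Tnc, Thbs2 (1.57, adjusted p = 0.0122), Ncan (1.12, 0.0203), Sparc (0.64, 0.0311) and the collagens Col18a1 (0.64, 0.0193), Col7a1 (0.58, 0.0241), Col4a1 (0.53, 0.0292), Col12a1 (not detected in control, 0.032) and Col2a1 (0.69, 0.0415). The 7 lower genes were the basement membrane genes Nid1 (-1.41, adjusted p = 0.0105), Lama1 (-1.88, 0.0195), Hspg2 (-0.80, 0.032) and Lamb2 (-0.52, 0.0486), together with Col9a2 (-0.93, 0.013), Itga5 (-0.62, 0.0225) and Spp1 (-1.18, 0.032). The class medians were 0.53 for the 11 collagens and -0.52 for the 9 laminins and linkers, beside 0.00 (0.0031) over all tested genes. Since this array lay nearer to REST KO in 7 of the 11 collagens and 7 of the 9 laminins and linkers, wider differences without it follow from its place and are no separate support. When control replicate 1 or a REST KO array was left out instead, no probe on the array was called (limma, 1449 to 2086 probes at an unadjusted p under 0.05). Without control replicate 3, 3 genes of the group were called, of which Itga3 (0.77, adjusted p = 0.034) was not called with all arrays. In that fit 8.51% of the group's probes and 2.2% of all tested probes were called.

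**Figure D4:**
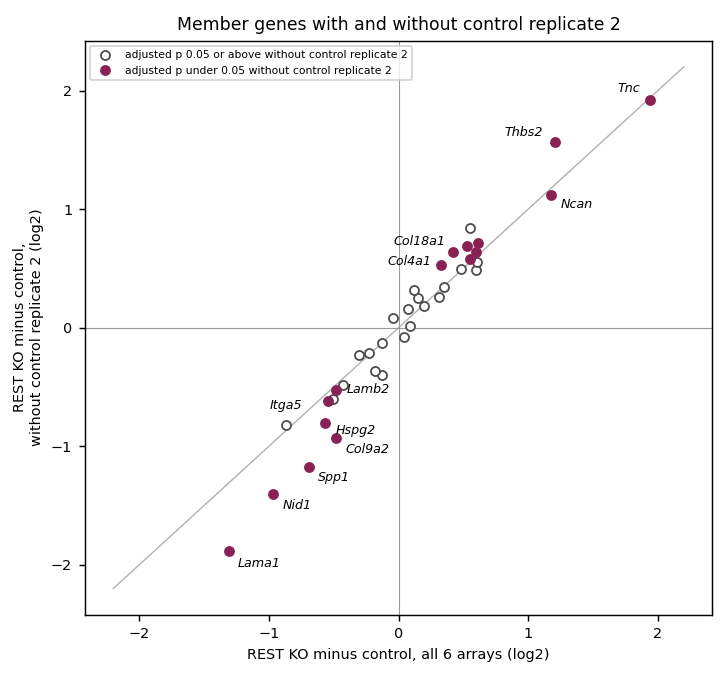
Log2 difference of each of the 37 tested genes with all 6 arrays (horizontal axis) against the same without control replicate 2 (vertical axis), filled where the adjusted p without that array was under 0.05. Lama1 moves from -1.31 to -1.88 and Nid1 from -0.97 to -1.41, while Tnc and Ncan stay near the diagonal.

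Of the 138 probes, the authors' deposited table had 5 higher and 1 lower in REST KO cells at an adjusted p under 0.05, while 1.74% of all its probes passed. The 5 higher probes were, in the authors' deposited table, both Tnc probes named above (log2 1.09 and 0.76), Ncan (0.61), Sparc (0.55) and Lox (0.57, adjusted p = 0.0309), and the lower one was Itga5 (-0.45, adjusted p = 0.0356). The log2 differences of Tnc, Ncan, Sparc and Itga5 there equal those fitted to quantile normalized intensities without background correction, a step whose absence pulls differences of dim probes toward 0.

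Other matrix and adhesion genes were read from 5 further lists. Over all 8635 tested genes 96 were called higher and 22 lower. Focal adhesion and integrin adaptor genes, which join integrins to actin, had 18 of 23 genes tested, 15 of them above 0, with a median of 0.35. The scaffold gene Nedd9 had 5.61, 6.27 and 6.17 in control and 7.27, 7.27 and 6.94 in REST KO arrays and rose by 1.14 ± 0.19 (adjusted p = 0.0468). Zyx (zyxin), at 0.93 ± 0.17 (adjusted p = 0.0525), and the kindlin gene Fermt1, at 0.91 ± 0.18 (0.0589), fell short of the threshold. In this list 9 of the 18 tested genes had an unadjusted p under 0.05, all of them higher. Of all tested genes 10.4% were higher and 10% lower at that p.

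Proteases and their inhibitors had 14 of 29 genes tested, 10 above 0, with a median of 0.20. Timp3, a matrix-bound inhibitor of metalloproteinases, had 6.45, 6.63 and 6.55 in control and 7.41, 7.13 and 7.27 in REST KO arrays and rose by 0.72 ± 0.11 (adjusted p = 0.0384). The membrane metalloproteinase gene Mmp24 differed by 1.33 ± 0.26 (adjusted p = 0.0571), with 1 control array detecting it, and Timp2 by 0.82 ± 0.23 (0.123). Other matrix proteins had 21 of 49 genes tested, 12 above 0, with a median of 0.16. Efemp2 (fibulin 4), needed for elastic fibre assembly, had 6.60, 6.45 and 6.68 against 7.21, 7.37 and 7.23 and rose by 0.69 ± 0.11 (adjusted p = 0.0384). The matricellular gene Ccn1 differed by 1.41 ± 0.26 (adjusted p = 0.0528) and Ecm1 by 1.13 ± 0.23 (0.0646).

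Genes of collagen processing and crosslinking did not follow the collagens: 6 of 13 tested genes (22 on the array) were above 0. Their median was -0.11 and limma called none. At an unadjusted p under 0.05, 3 were higher and 2 lower, beside 10.4% and 10% of all tested genes. Bmp1, the protease that removes the C-propeptide of fibrillar procollagens, differed by 0.82 ± 0.19 (adjusted p = 0.079) and the prolyl hydroxylase gene P3h1 by -0.47 ± 0.16 (0.163). Other matrix receptors and proteoglycans had 9 of 18 genes tested, 7 above 0, with a median of 0.19 and none called. Of these 9, 2 had an unadjusted p under 0.05, both higher, against 20.5% of all tested genes in either direction. The collagen receptor kinase gene Ddr1 differed by 0.64 ± 0.13 (adjusted p = 0.0643) and the syndecan gene Sdc3 by 0.50 ± 0.13 (0.107). The calls for Nedd9, Timp3 and Efemp2 were lost when control replicate 1 or a REST KO array was left out, where no probe was called, and without control replicate 2 the differences were 1.28, 0.77 and 0.63 (adjusted p = 0.0156, 0.0164 and 0.0184). In that fit 8 focal adhesion genes were higher and 1 lower, 2 and 2 protease genes, 6 and 2 other matrix genes, 1 and 3 collagen processing genes, and 2 and 0 other receptors, while 7.45% of all tested genes were higher and 7.82% lower. The protease genes, at 14.3% in each direction, were 2 of 14 each way.

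Primitive and parietal endoderm, the cell types that secrete thick basement membranes around the early embryo, had 9 marker genes on the array, 5 of them detected on no array, Gata4, Sox17 and Foxa2 among these. The regulators Gata6 and Hnf4a and the gene Dab2 were detected on every array. The summed level of the 9 was 9.464 to 10.213 in control and 9.659 to 10.073 in REST KO arrays. That sum includes the 5 undetected genes at background, and Dab2 was the brightest of the 9 on every array. The endoderm regulator Sox7 was detected on every control and no REST KO array, and its REST KO level was at least 1.43-fold lower (adjusted p = 0.0239). Dab2, an endocytic adaptor of endoderm, had 7.82, 9.36 and 8.01 in control replicates 1 to 3 and 9.23, 9.40 and 8.68 in REST KO arrays, with control replicate 2 among the latter. It differed by 0.71 ± 0.40 (adjusted p = 0.371). Gata6 differed by -0.24 ± 0.18 (adjusted p = 0.499) and Hnf4a, outside the naming rule, by -0.21 ± 0.16 (0.506), both with overlap. Of the ES cell markers Sox2 was lower in every REST KO array, with 10.37, 9.75 and 10.14 in control and 9.10, 9.35 and 9.40 in REST KO arrays (-0.81 ± 0.17, adjusted p = 0.0714). Fgf4 had 7.70, 7.76 and 6.89 against 6.58, 6.97 and 6.82 (-0.66 ± 0.24, adjusted p = 0.191). Control replicate 2 was the lowest control in Sox2 and the highest in Fgf4. Esrrb and Zfp42 (like Dppa5a and Utf1, chosen after their values were seen) had controls at 14.75, 13.32 and 14.70 and at 12.73, 11.27 and 12.86, and REST KO arrays at 13.002, 12.97 and 13.77 and at 10.99, 10.98 and 11.93. In both, control replicate 2 was the lowest control, as in Lama1 and Nid1, while in Utf1 (11.12, 11.63 and 10.93 in control) it was the highest. The part of these genes in the laminin and nidogen differences was not tested.

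**Figure D5:**
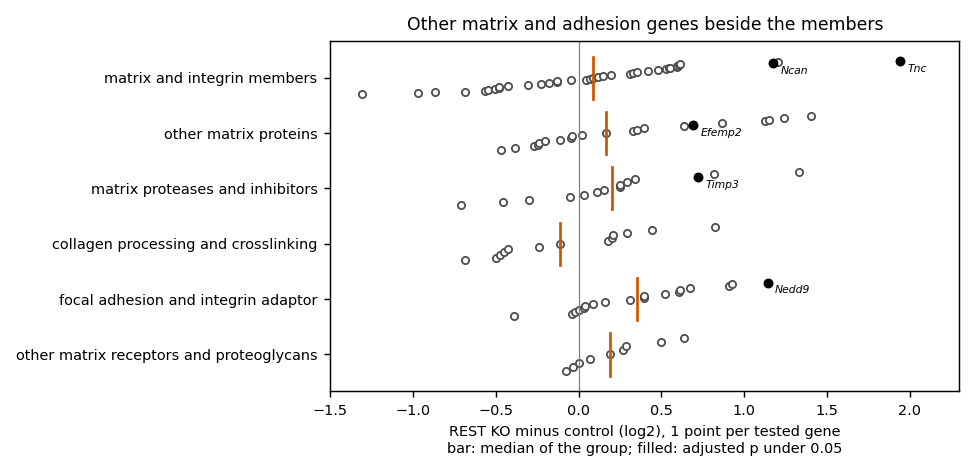
Log2 difference between REST KO and control for each tested gene of the matrix and integrin group and of 5 further lists (rows), with a bar at the median and filled points where the adjusted p was under 0.05. The filled points, Tnc, Ncan, Efemp2, Timp3 and Nedd9, are all to the right of 0, and the median bars run from -0.11 for collagen processing to 0.35 for focal adhesion genes.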

How the data were processed

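Total RNA of 3 control and 3 REST KO samples was hybridised to 6 arrays of a single chip. The mean intensity of each probe, its bead standard deviation and its bead number were exported by the authors from BeadStudio 3.3.7 and not normalized, per the file headers. The deposited detection score runs from 0 to 1. It is headed as a p-value but grows with signal, so 1 minus it served as detection p. The deposited log2 values of the authors matched plain quantile normalization within 5e-09. Their table of log2 fold changes and p-values was deposited too, made with beadarray and limma per the labels, with options and genome build not given in the sources used here.

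Intensities were corrected with neqc (limma 3.58.1, R 4.3.3), using detection p, an offset of 16 and quantile normalization. The offset shrinks differences of dim probes. Probes detected (p under 0.05) on at least 3 of 6 arrays entered lmFit and eBayes on genotype, two-sided, with Benjamini-Hochberg adjustment over all 11388 probes; those under 0.05 are called. All adjusted p are of this fit unless another is named. Errors are limma standard errors of the difference, in which the variance of a probe is drawn toward that of all tested probes. The 3 arrays per genotype limit their precision. A gene is given by its brightest tested probe. A probe undetected in 1 genotype has only a bound there, set at the higher of its own value and the lowest detected level of each array, and its fold is written as "at least". Probes were named by the authors' symbols (127) or target names (11), with 1 gene brought to its current symbol.

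Members, classes and lists were chosen with earlier results of these data known. Genes named with values were every called member, up to 3 per class with the smallest adjusted p and up to 2 with the highest mean level, members whose controls span over 1.5 on the log2 scale, and in each list the called genes and up to 2 more by adjusted p. Others are marked where named. Replicate numbers were not used to pair the samples in the main fit. Deviations of same-numbered arrays correlated at -0.27, 0.34 and 0.36. Between arrays of different numbers the correlations ran from -0.548 (control replicate 2 with REST KO replicate 3) to 0.45 (control replicate 1 with REST KO replicate 3). The 3 arrays per genotype are too few to tell whether the samples were paired. The test was checked on simulated data before use. Alternatives varied background, normalization, offset, filter, variance model, array weights, a replicate block and the arrays left out.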

Additional observations from a re-analysis of the deposited data

How the results depend on the processing

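With all arrays 3 matrix and integrin probes were called higher and 0 lower, for 2 genes. Cyclic loess and an offset of 50 gave the same counts. Quantile normalization without background correction called 4 probes higher and 1 lower (4 genes, Sparc and Itga5 added), and a variance trend with robust fitting 5 and 1 (5 genes, Sparc, Itga3 and Itga5 added). No filter on dim probes left 2 probes of 1 gene (1.45% of the group's probes, against 0.195% of all 25697). Testing only probes detected on all 6 arrays, which drops Tnc, Ncan and Thbs2, left 0 probes and 0 genes. In that fit 0.696% of all 9914 tested probes were called, and 17 of the group's probes had an unadjusted p under 0.05 (limma). Array weights called 11 probes higher and 7 lower (16 genes). Calls rose over the whole array too. Of all tested probes 1.27% were called in the main fit, 2.92% without background correction, 3.2% with the variance trend and 12.2% with array weights. The shares of the group were 6.38%, 10.6%, 12.8% and 38.3% in the same order. With the replicate block 0 of these probes and 0 genes were called (24 at an unadjusted p under 0.05), with Tnc at an adjusted p = 0.0681 and Ncan at 0.088, and 0 probes on the whole array. Leaving out 1 array at a time gave 0 to 12 probes higher, 0 to 7 lower and 0 to 16 genes. The highest values came without control replicate 2, where 14.5% of all tested probes were called. Without control replicate 1 or any REST KO array 0 were called. The median of the tested genes of the group stayed between 0.03 and 0.16 in every setting tried, within the spread of the array medians, 0.225. Over 32 named genes and 441 alternative values, 4 changed sign, all of genes near 0: Fbn1 with array weights (-0.038), without control replicate 2 (-0.0809) and without REST KO replicate 2 (-0.0383; its range over the 6 left-out arrays was -0.0809 to 0.147), and Nid2 without control replicate 1 (-0.0184). A further 34 values newly passed and 11 no longer passed. The cause of these changes was not tested. Depth limits the dim genes: Tnc, Ncan and Thbs2 were each detected on 1 control array, so their folds average in background.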
